A study of Mus musculus with 18 samples.

Results

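CHD8 is an ATP-dependent chromatin remodeler that binds near the start sites of many genes, and regulatory T cells (Tregs) are the CD4+ T cells that hold other T cells in check under the transcription factor Foxp3. ATAC-seq maps open chromatin by letting the transposase Tn5 cut and tag accessible DNA, so a peak marks a promoter, an enhancer or another stretch with few nucleosomes. Wide, strong peaks are typical of the promoters of active genes, and narrow, weak peaks are more often enhancers or sites open in a part of the cells.

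To find out how the loss of CHD8 altered accessibility in Tregs, the ATAC-seq peaks of Chd8-/- and WT Tregs were compared on chromosomes 1 to 19, which hold 79800 of the 81800 peaks of the table. Of the 18 samples of the series, all from splenic Tregs and otherwise used for RNA-seq or for CHIP-seq of CHD8, 6 are ATAC-seq libraries, 2 per mouse. The values are given as 1 column per mouse, for 1 WT mouse and 2 Chd8-/- mice, and how the libraries of a mouse were combined is not given in the sources used here. The Chd8-/- mice carried floxed Chd8 alleles and Foxp3YFP-Cre, a fusion of YFP and Cre recombinase expressed from the X-linked Foxp3 locus, so that Chd8 is deleted in cells that express Foxp3. The label of the WT libraries names floxed Chd8 as well, with heterozygous Foxp3YFP-Cre, while the methods describe WT mice with intact Chd8 and Foxp3YFP-Cre, and which of the descriptions holds for the WT mouse of the ATAC-seq was not settled. In a female heterozygous for the X-linked fusion, only a part of the Tregs carries Cre, and sorting for YFP keeps that part. The labels give poly IC injection as the treatment of every library, the mice were 5 to 7 weeks old, and the methods describe 1 WT male, 1 Chd8-/- male and 1 Chd8-/- female. A male has a single X chromosome, so the heterozygous label does not go with a WT male. CD4+YFP+ cells were sorted for each reaction.

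The deposited values are TPM over peaks, which are corrected for peak width and have the same sum in each mouse, rounded to 0.1 TPM, and the depth behind them is unknown. The median peak stood at 8.3 TPM in the WT mouse, 8.7 TPM in Chd8-/- mouse 1 and 8.3 TPM in Chd8-/- mouse 2, and 376, 409 and 394 peaks were listed at 0. All changes below are differences in log2(TPM + 0.84), Chd8-/- minus WT, and understate the change of weak peaks. The peaks are in the build mm39 and were not paired with genes, since an annotation of that build was not used here. The deletion of Chd8 and the identity of the cells therefore could not be checked in the peaks. In the RNA-seq libraries of the series, which are other libraries, Foxp3 stood at 202.8 and 215.4 TPM in WT and 232.1 and 205.3 TPM in Chd8-/- Tregs, while Chd8 stood at 24.7 and 27.6 TPM in WT and 14.9 and 11.4 TPM in Chd8-/- Tregs.

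More peaks were higher than lower in Chd8-/- Tregs. At a log2 change of 0.4 or more in the mean of the Chd8-/- mice, 13752 peaks (17.2% of all autosomal peaks) were higher and 7998 (10.0%) were lower, and 58050 passed neither cutoff. In each Chd8-/- mouse separately, 10141 peaks (12.7%) were higher by 0.4 or more and 5134 (6.43%) were lower, and 67 peaks moved past the cutoff in opposite directions. A change of 1 or more was reached upward by 2001 peaks (2.51%) and downward by 833 (1.04%). The median change of all autosomal peaks was 0.012, with 0.021 in mouse 1 and 0.0055 in mouse 2. Because TPM fixes the sum of each mouse, a shift of all peaks in one direction could not be seen. In these sorted populations, more cells with an open site and a more open site in each cell cannot be told apart.

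The Chd8-/- mice themselves differed by 0.4 or more at 10501 peaks (13.2%) and by 1 or more at 268 peaks (0.336%), against 2834 peaks (3.55%) with a mean change of 1 or more from WT. The SD over peaks of the difference between the Chd8-/- mice was 0.27, and that of their mean change from WT was 0.43. Since there was only 1 WT mouse, how much WT mice vary is not known. A deviation of that mouse enters the change of both Chd8-/- mice alike. A fit with limma over all 81800 peaks, which assumes that the WT mouse varies as the Chd8-/- mice do and has 1 residual degree of freedom per peak, called 0 peaks in each direction at an adjusted p of 0.05 (smallest adjusted p = 0.095, Benjamini-Hochberg). At an unadjusted p under 0.05, limma listed 8619 peaks (10.8%) as higher and 5214 (6.53%) as lower. No single peak below is therefore called by a test, and "higher", "lower", "gain" and "loss" stand for the cutoff alone. The counts also depended on scaling, since quantile normalization gave 10346 higher and 9703 lower peaks, a share of gains of 51.6% among all peaks past the cutoff, where the values as deposited gave 63.2%.

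**Figure D1:**
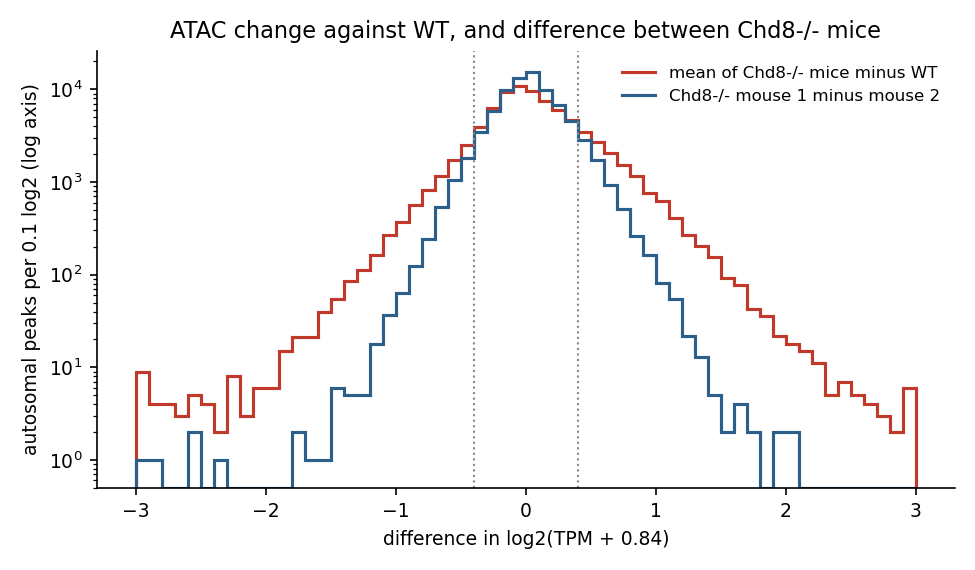
Number of autosomal peaks (log axis) per 0.1 of the difference in log2(TPM + 0.84), for the mean of both Chd8-/- mice minus the WT mouse (red) and for Chd8-/- mouse 1 minus mouse 2 (blue), with values past 3 in the outermost bins and dotted lines at the cutoff of 0.4. The red curve is the broader one (SD 0.43 against 0.27) and reaches further to the right than to the left, with 2001 peaks at 1 or more and 833 at -1 or less.

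Higher and lower peaks differed in width and level. The higher peaks were weak sites in WT Tregs, with a median of 3.7 TPM in the WT mouse and 6.6 and 6.4 TPM in the Chd8-/- mice, and a median width of 277 bp. The lower peaks were narrower, with a median of 219 bp, and had medians of 8.1 TPM in the WT mouse and 5.2 and 4.6 TPM in the Chd8-/- mice. Peaks that passed neither cutoff had a median width of 353 bp and medians of 10.0, 10.2 and 9.9 TPM. The higher peaks held 6.84% of the summed autosomal TPM in the WT mouse and 11.7% and 11.6% in the Chd8-/- mice, whereas the lower peaks held 8.63% in WT and 5.53% and 5.27% in the Chd8-/- mice. Because the cutoff on the change uses the same WT value, a low WT level of the higher peaks and a high one of the lower peaks follow in part from how they were chosen.

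The change depended on peak width, and most at both ends of its range from 70 to 4594 bp. In the narrowest decile (70 to 136 bp), 16.8% of peaks were higher and 22.0% lower, the only decile in which lower peaks outnumbered higher ones. Below 100 bp the share of lower peaks was 33.9% against 12.0% higher. In the fourth decile (211 to 268 bp) 23.9% were higher and 12.7% lower, the highest share of gains of any decile. In the widest decile (914 to 4594 bp) 3.06% were higher and 2.02% lower, with a median change of -0.079 in mouse 1 and -0.066 in mouse 2. The widest peaks thus moved least and slightly downward. The values of the deciles also differed in precision, since the SD of the difference between the Chd8-/- mice fell from 0.36 in the narrowest to 0.13 in the widest decile. Width and CHD8 binding went together, as 0.512% of the narrowest decile and 48.2% of the widest decile overlapped a peak of the CHIP-seq for CHD8.

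By mean signal, weak sites were higher most often. In the decile of peaks with the lowest mean signal, the median was 2.2 TPM in the WT mouse and 2.9 TPM in each Chd8-/- mouse, and 38.6% of peaks were higher while 17.1% were lower. The share of higher peaks was smaller in every next decile, down to 1.24% in the decile with the highest signal, where 1.34% were lower and the medians were 36.2, 34.0 and 34.9 TPM. The share of peaks at which the Chd8-/- mice lay 0.4 or more apart was 20.7% in the lowest and 1.79% in the highest decile, so a fixed cutoff is passed more easily by weak peaks. The median change went from 0.21 in the lowest to -0.075 in the highest decile, with 0.20 and -0.092 in mouse 1 and 0.21 and -0.061 in mouse 2. Both Chd8-/- mice showed the same order, but both changes subtract the same WT value, which also enters the signal. Within the lowest quintile of signal, the share of higher peaks stayed between 33.0% and 34.6% over the quintiles of width, while the share of lower peaks went from 25.0% in the narrowest to 9.89% in the widest. In the highest quintile of signal the share of lower peaks went from 4.73% to 0.846%, and that of higher peaks from 6.89% to 0.219%. Narrow peaks thus had more losses also among peaks of like signal, and in the highest quintile more gains as well. The share of peaks at which the Chd8-/- mice lay 0.4 or more apart also fell with width. It went from 28.3% to 15.8% in the lowest quintile of signal and from 7.64% to 0.251% in the highest. The part of this spread in the losses was not tested.

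How steep the relation with signal was depended on how signal was measured. When peaks were ordered by the WT value, which also enters the change, 65.4% of the lowest decile were higher and the median change was 0.58. When the order came from mouse 1 and the change from mouse 2, 27.7% of the lowest decile were higher and 25.0% lower, with a median of 0.030, and the highest decile stood at -0.054. With the roles of the mice exchanged the shares were 23.4% and 25.6%, and the highest decile stood at -0.087. Between the lowest and the highest decile, the medians then differed by -0.084 and -0.087 in place of -0.28. The order was also no longer even, since the second decile had the highest median, 0.080 in mouse 2 and 0.12 in mouse 1, and in mouse 1 more higher peaks than the lowest decile, 29.9%. After quantile normalization, which gives the mice the same distribution of values, the median change was 0 in the lowest and -0.0072 in the highest decile, so the relation of the median with signal was lost. In the lowest decile 21.3% of peaks were then higher and 23.6% lower. The order by width changed as well, to -0.055 in the narrowest and -0.024 in the widest decile.

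Over all levels of signal, isolated peaks were higher more often than clustered ones. The distance to the nearer neighbouring peak had a median of 2454 bp. Among the decile of peaks farthest from a neighbour (18641 bp or more), 25.8% were higher and 7.03% lower, with a median change of 0.084 in mouse 1 and 0.12 in mouse 2. Among the nearest decile (139 bp or less, 875 peaks overlapping a neighbour included), 12.0% were higher and 10.9% lower. In every decile between them the share of higher peaks lay between these values. It went on with distance, since 33.4% of the 844 peaks without a neighbour within 100000 bp were higher and 6.64% lower, with medians of 3.9 TPM in the WT mouse and 4.7 and 5.0 TPM in the Chd8-/- mice.

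Isolated peaks were also weaker, and the relation with distance differed by signal. In the lowest quintile of signal, 41.0% of the most isolated quintile and 31.0% of the most clustered quintile were higher. In no other quintile of signal was the share of higher peaks larger in the isolated peaks, with 20.8% against 23.4% in the second, 14.2% against 16.4% in the third, 9.84% against 9.85% in the fourth and a smaller share in the highest as well. The larger share of gains among isolated peaks thus held only among the weakest peaks. The share of lower peaks was smaller in the isolated than in the clustered quintile at each level of signal, from 10.1% against 17.5% in the lowest to 1.47% against 3.09% in the highest. After quantile normalization the most isolated decile still had the highest median, 0.034, with 17.0% higher and 9.71% lower, and the nearest decile stood at -0.025. Peaks are not replicates and were measured in the same 3 mice, so the differences between deciles are descriptions without a test.

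**Figure D2:**
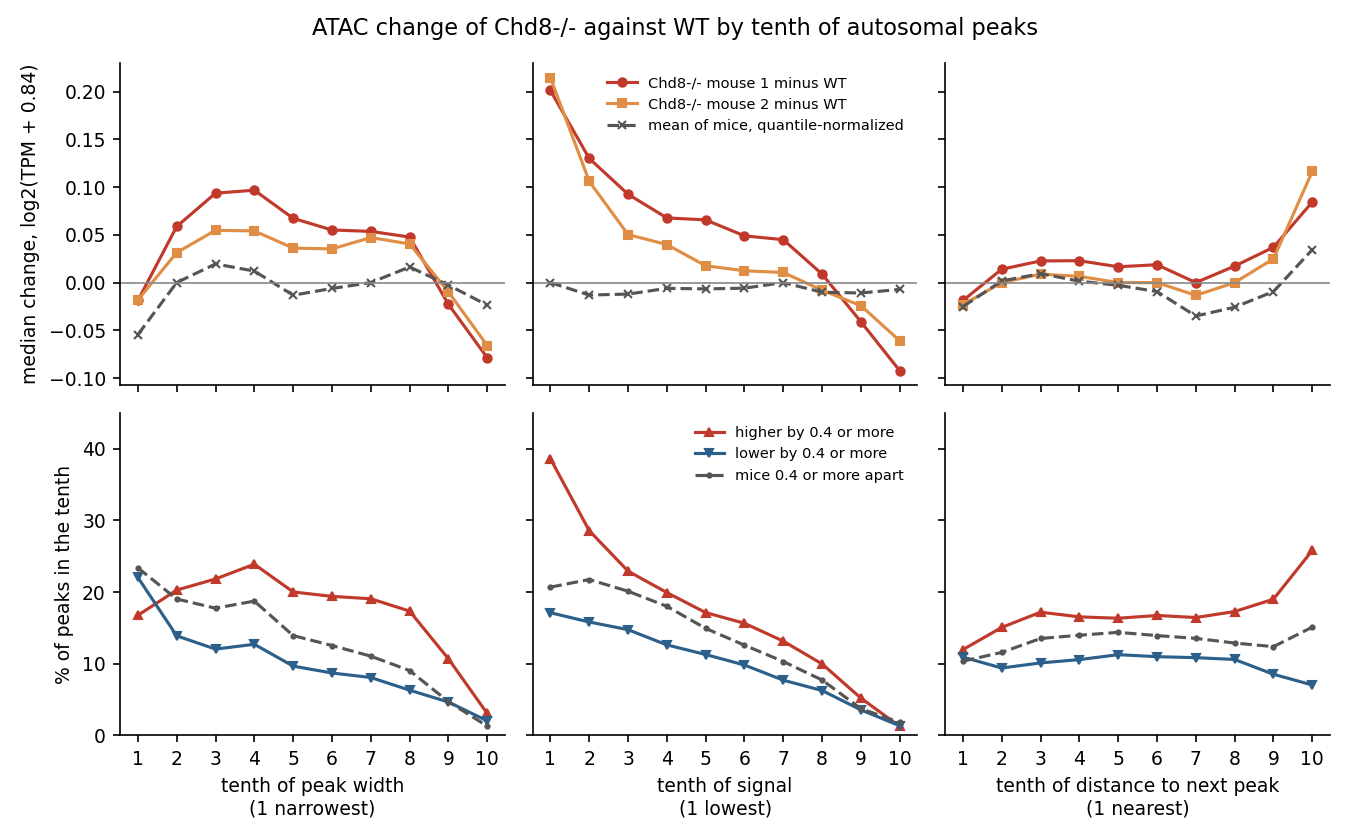
Top, median difference in log2(TPM + 0.84) from WT for each Chd8-/- mouse (solid lines) and for their mean after quantile normalization (dashed), by decile of peak width, of signal (mean log2 value of the 3 mice) and of distance to the nearer peak. Bottom, percent of peaks in each decile that were higher or lower by 0.4 or more in the mean, and percent at which the Chd8-/- mice lay 0.4 or more apart. Gains fall from 38.6% to 1.24% with signal and rise to 25.8% in the most isolated decile, and the dashed line lies near 0 over all deciles of signal.

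The chromosomes differed little in the median and more in the shares. In the mean of the mice, chromosome 11 had the lowest median change, -0.030 in mouse 1 and -0.041 in mouse 2, and chromosomes 16 and 18 the highest, 0.053 and 0.055 in mouse 1 and 0.035 in mouse 2 for both. In mouse 1 alone chromosome 6 was above them, at 0.057. The range of the medians over the 19 autosomes was 0.081, and it was 0.068 after quantile normalization, with chromosome 11 at the lower end and chromosomes 18, 6 and 16 at the upper end. The share of higher peaks went from 13.3% on chromosome 11 to 21.8% on chromosome 14. Chromosomes with many peaks per Mb had lower medians, with a Pearson r of -0.81 and a Spearman rho of -0.73 over the 19 chromosomes. Those with a higher median TPM in the WT mouse also had lower medians, with r of -0.75 and rho of -0.81. The chromosomes share the same 3 mice and the same scaling, and the WT value enters the change. With the median change in RNA of the genes of each chromosome, taken from GRCm38, r was -0.19 and rho -0.15, so accessibility and RNA did not order the chromosomes alike.

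Chromosome 14 stood apart by strong changes in both directions. It is the chromosome that carries Chd8 in the RefSeq annotation of GRCm38, and it also carries the T cell receptor alpha locus, which is rearranged in T cells. Neither was placed among these peaks, and the strain that the sequence around the floxed alleles comes from in each mouse is not given in the sources used here. In stretches of 10 Mb with at least 50 peaks, of which there were 246, the median share of peaks with a change of 1 or more in either direction was 3.27%. The stretch of chromosome 14 from 50 to 60 Mb had 19.5% of 615 peaks past 1, with 56 higher and 64 lower. From 40 to 50 Mb, 24.0% of 217 peaks were past 1, with 32 higher and 20 lower. These were the highest shares of all stretches. They were seen in each mouse, with 25.3% and 24.9% in the latter and 18.9% and 20.5% in the former stretch, but against the same WT mouse. At the same peaks the Chd8-/- mice lay 1 or more apart in 0.922% and 0.325% of cases. Over both stretches 20.7% of 832 peaks changed by 1 or more, against 3.37% of the other 78968 autosomal peaks and 4.86% of the rest of chromosome 14. The median change of these 832 peaks was 0, so gains and losses were balanced there, and after quantile normalization 19.1% were past 1 against 2.81% of all autosomal peaks. The stretches were looked at after the values were seen.

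**Figure D3:**
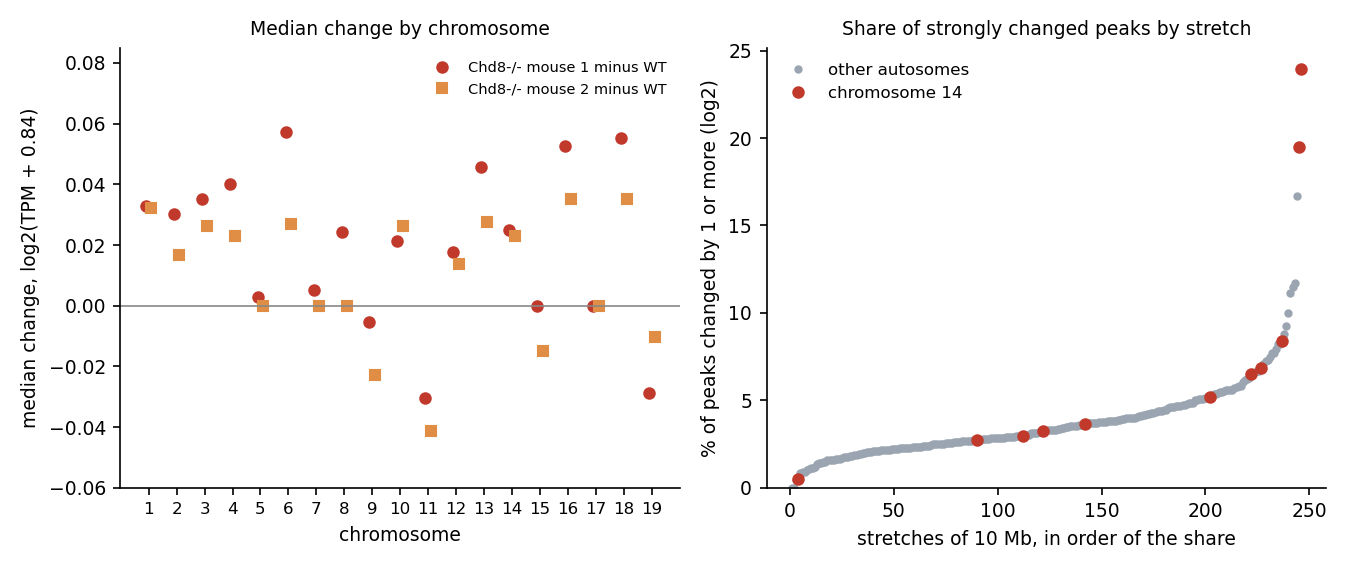
Left, median difference in log2(TPM + 0.84) from WT over the peaks of each chromosome, for Chd8-/- mouse 1 (circles) and mouse 2 (squares). Right, percent of peaks with a mean change of 1 or more in either direction in each of 246 stretches of 10 Mb, in increasing order, where 2 stretches of chromosome 14 (19.5% and 24.0%) stand above all others.

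Neighbouring peaks changed together. Peaks less than 200 bp apart correlated at r = 0.54 in their change over 5226 pairs, and r fell to 0.35 at 1000 to 2000 bp (6181 pairs) and to 0.045 beyond 100000 bp (3212 pairs). The difference between the Chd8-/- mice, in which the WT mouse has no part, correlated at 0.33, 0.23 and 0.091 over the same pairs, less than the change in the first 2 classes and more in the last. In the 443 pairs of overlapping peaks it also correlated more, at 0.51 against 0.47. A peak within 200 bp of a higher peak was itself higher in 49.5% of 650 cases, against 13.6% of all second peaks at that distance. Next to a lower peak 30.8% were lower, against 10.6%. Neighbours can share fragments and sites, and pairs are not independent.

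Along the chromosomes, 101 runs of 5 or more successive peaks were higher by 0.4 or more in each Chd8-/- mouse, and they held 636 peaks. Downward there were 15 such runs with 93 peaks. Of all autosomal peaks, 12.7% were higher and 6.43% lower in each mouse, so more runs upward follow in part from these shares. The medians of runs are taken over peaks chosen for being past the cutoff. The longest run upward had 13 peaks over 685 kb of chromosome 10 (chr10:50786563-51471469), with a median change of 0.75 and medians of 2.7 TPM in the WT mouse and 4.3 and 5.4 TPM in the Chd8-/- mice. A pair of runs had 12 peaks, chr14:63817374-63919326, from 6.45 TPM in the WT mouse to 14.4 and 13.7 TPM, and chr4:63767446-63786869, from 9.2 TPM to 20.3 and 19.8 TPM. Single peaks changed by 0.53 to 1.13 in the run of chromosome 10 and by 0.45 to 1.22 in that of chromosome 14. The longest run downward had 9 peaks over 169 kb (chr11:90308598-90477389), from a median of 6.8 TPM in the WT mouse to 2.9 and 3.4 TPM. Chromosomes 14 and 4 each held 11 of the runs upward, with 3324 and 4793 of the 79800 autosomal peaks. Chromosome 14 held 4 of the 15 runs downward, among them 8 peaks at chr14:53270638-53311007. These 8 peaks had medians of 8.65 TPM in the WT mouse and 1.55 and 1.6 TPM in the Chd8-/- mice.

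Windows of 1 Mb with at least 20 peaks, 1335 in all, had medians with an SD of 0.12, while the medians of the difference between the Chd8-/- mice had an SD of 0.066. A median of 0.2 or more was found in both mice in 75 windows and of -0.2 or less in 6. The highest median, 0.59 over 23 peaks, was in the window of chromosome 6 that starts at 13 Mb, with 0.35 in mouse 1 and 0.57 in mouse 2. It was followed by the windows at 63 Mb of chromosome 4 and at 89 Mb of chromosome 13. In the latter, 39 of 40 peaks lay above WT, with medians of 4.85 TPM in the WT mouse and 7.0 and 8.0 TPM in the Chd8-/- mice.

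The window of chromosome 4 was the densest of these, with 95 peaks, and it was split in its middle. In its first 0.5 Mb, 9 of 42 peaks were higher and 0 lower, and the medians were 14.4 TPM in the WT mouse and 18.8 and 16.6 TPM in the Chd8-/- mice. In its last 0.5 Mb (chr4:63508846-63866779), 48 of 53 peaks were higher and 1 lower, with medians of 5.0 TPM in the WT mouse and 10.9 and 10.1 TPM in the Chd8-/- mice. There 43 peaks were higher in each mouse, and the median change was 0.94 in mouse 1 and 0.93 in mouse 2. One of its strongest sites, chr4:63774851-63774965, went from 4.4 TPM in the WT mouse to 25.7 and 19.7 TPM. Across the 76 peaks of the 1 Mb before the window, the medians were 9.7, 10.3 and 9.55 TPM, and 14 were higher and 7 lower. After quantile normalization the median change of the last 0.5 Mb was 0.86, with 44 of 53 peaks higher.

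**Figure D4:**
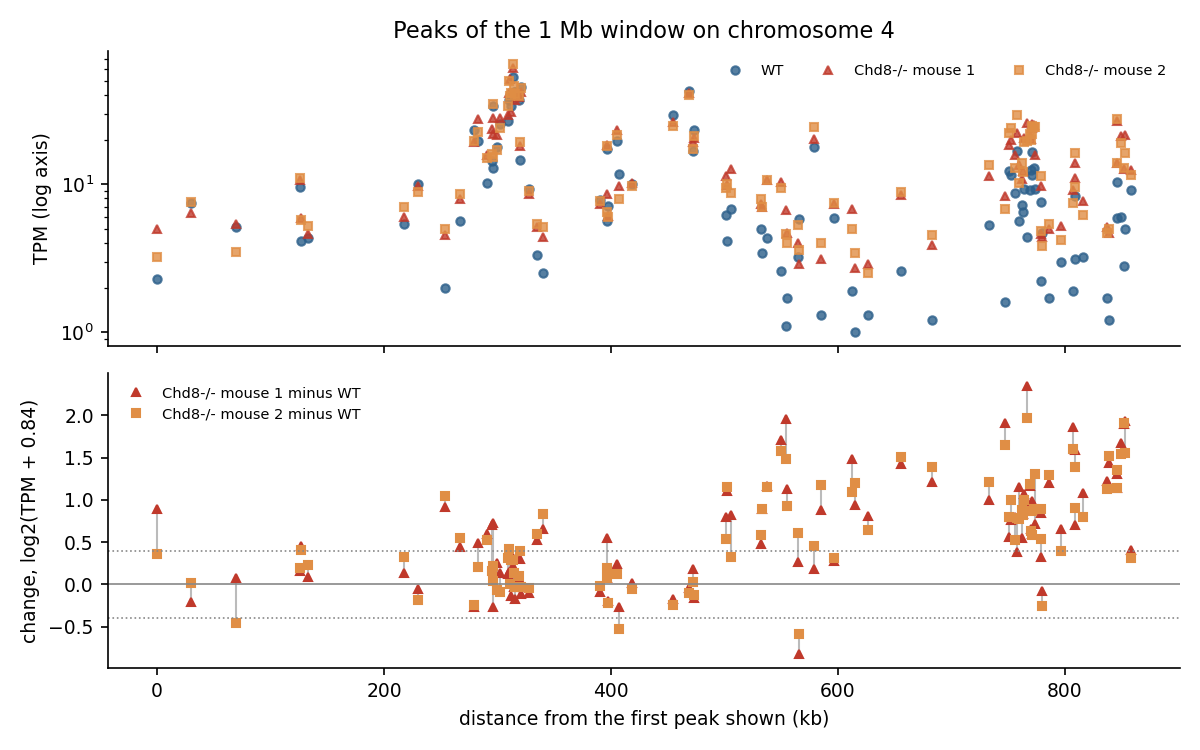
TPM (top, log axis) of the 95 peaks of the 1 Mb window of chromosome 4 in the WT mouse and each Chd8-/- mouse, and difference in log2(TPM + 0.84) of each Chd8-/- mouse from WT (bottom, grey lines join the mice, dotted lines at 0.4 and -0.4), by distance from the first peak. Up to about the middle most points lie near 0, and in the last 0.5 Mb 48 of 53 peaks are higher.

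The lowest windows were less uniform. The lowest of all, at 3 Mb of chromosome 9 with 53 peaks, had a median change of -0.71 in mouse 1 and -0.15 in mouse 2, and medians of 22.7, 12.9 and 20.2 TPM, so its rank rests on mouse 1. The mitochondrial peaks had the same order of mice, with sums of 4059.9, 2383.2 and 3476.9 TPM. Whether mitochondrial or repeated sequence contributes to the values of this window was not tested. The window at 115 Mb of chromosome 12, with 68 peaks, was low in both mice (-0.42 and -0.27), with medians of 6.15 TPM in the WT mouse and 4.35 and 4.5 TPM in the Chd8-/- mice and 29 lower peaks against 1 higher. The window at 6 Mb of chromosome 10 had medians of -0.26 and -0.44 over 22 peaks. These windows kept their direction under both other pseudocounts and quantile normalization.

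Mouse 1 and mouse 2 also lay apart at the very strongest peaks. The strongest, chr2:98496590-98497660, was listed at 849.8 TPM in the WT mouse, 409.1 TPM in mouse 1 and 699.6 TPM in mouse 2. At chr17:40153922-40158029 the values were 268.2, 240.6 and 349.3 TPM. At each of the 10 strongest peaks mouse 1 was the lowest of the mice, and the mean change does not describe both Chd8-/- mice. Mouse 1 was also the lowest in the summed mitochondrial peaks. The methods name no step that removes regions of repeated sequence, and the part of such sequence in the strongest peaks was not tested.

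Among peaks with a mean TPM at or above the median peak and a change past 0.4 in each Chd8-/- mouse, 2576 were higher and 1400 lower. The largest gain was at chr8:3853225-3853374, a site of 149 bp with no other peak within 48628 bp, which was listed at 0.1 TPM in the WT mouse and at 15.7 and 14.6 TPM in the Chd8-/- mice. It was at the limit of the rounding in WT, so the size of its change depended on the pseudocount, with 4.09 as analysed and 1.47 with the median value added. The next was chr14:45820179-45820589, at 0.6 TPM in the WT mouse and 16.7 and 14.7 TPM in the Chd8-/- mice. It lies within the stretch of chromosome 14 described above.

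The next pair of gains was on chromosome 4, outside the dense window. The peak chr4:150134181-150134389 had 1.1 TPM in the WT mouse and 17.2 and 16.3 TPM in the Chd8-/- mice. The peak chr4:31941573-31942201, 628 bp wide, had 1.0 TPM in the WT mouse and 13.7 and 17.0 TPM. The last of them, chr2:145741925-145742559, had 1.7 TPM in the WT mouse and 16.1 and 21.0 TPM. Their low WT values and their Chd8-/- values above the median peak follow from how they were chosen.

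Of the 5 largest losses among the peaks that passed the same filter, 3 were on chromosome 14. The peak chr14:54729844-54730629, 785 bp wide, had 22.7 TPM in the WT mouse and 3.2 and 3.1 TPM in the Chd8-/- mice, a log2 change of -2.54 in mouse 1 and -2.58 in mouse 2. The peak chr14:34493767-34493930 had 17.3 TPM in the WT mouse and 4.6 and 4.5 TPM, and chr14:53369977-53370169 had 20.9 TPM in the WT mouse and 6.4 and 6.9 TPM. In these the Chd8-/- mice lay within 0.1 of each other. The peak chr10:41756778-41757106 had 31.8 TPM in the WT mouse and 10.8 and 9.3 TPM in the Chd8-/- mice. The last, chr17:29649487-29649716, had 17.4 TPM in the WT mouse and 8.1 and 3.4 TPM, so that the Chd8-/- mice were 1.08 apart on the log2 scale. Since the filter on the mean TPM removes sites that were moderate in WT and near 0 in the Chd8-/- mice, deeper losses lay outside it, such as a peak with a change of -3.99 in a run of 6 lower peaks at chr14:53338913-53370169.

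Through the positions of CHD8 CHIP-seq peaks that the study assigned to Cdkn1a, Bhlhe40 and Hspa5, the ATAC peaks at or around these sites could be followed. Cdkn1a encodes the cell cycle inhibitor p21, a target of p53. The ATAC peaks between and within 50 kb of its CHD8 sites spread over 431 kb. Among them, 10 successive peaks at chr17:29284235-29313034 were all higher in the mean. The strongest of the 10 in WT Tregs, chr17:29312510-29313034, went from 15.5 TPM in the WT mouse to 34.9 and 34.8 TPM. The site chr17:29309853-29309976 went from 2.0 TPM in the WT mouse to 14.1 and 19.8 TPM, the largest change of the run (2.63). The site chr17:29299806-29299969 went from 3.3 TPM in the WT mouse to 13.0 and 15.7 TPM. The run is confined, because the 3 peaks before it and the 3 after it passed neither cutoff.

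Before the run and apart from it by 3 peaks, 2 peaks at chr17:29258482-29260441 were lower, from 6.1 and 6.3 TPM in the WT mouse to between 1.1 and 4.3 TPM in the Chd8-/- mice. Outside the run, lower peaks outnumbered higher ones and lay on both sides of it, with mean changes from -0.46 to -1.59. The only higher peaks there were chr17:29383452-29383908 (0.44) and chr17:29614349-29614734 (0.53). Of all autosomal peaks, 17.2% were higher and 10.0% lower. The ATAC peaks at the 4 CHD8 sites themselves lay outside the run and were slightly below WT in the mean. For example, chr17:29250822-29252087 had 31.9 TPM in the WT mouse and 27.0 and 27.1 TPM in the Chd8-/- mice. None of the 10 peaks of the run was thus one of those at the 4 CHD8 sites assigned to Cdkn1a. After quantile normalization, 9 of the 10 peaks of the run were higher, with a median change of 1.04.

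**Figure D5:**
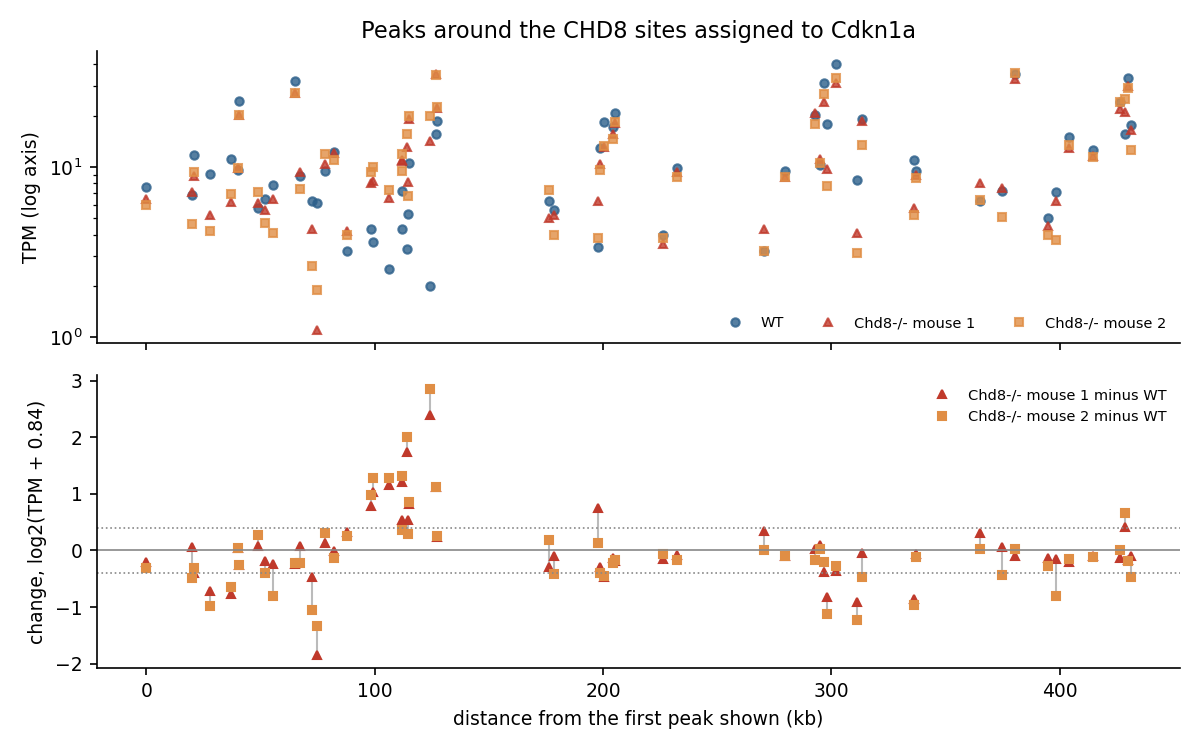
TPM (top, log axis) of the ATAC peaks between and within 50 kb of the CHD8 sites assigned to Cdkn1a in the WT mouse and each Chd8-/- mouse, and difference in log2(TPM + 0.84) of each Chd8-/- mouse from WT (bottom, grey lines join the mice, dotted lines at 0.4 and -0.4), by distance from the first peak. The run of 10 raised peaks lies 98.4 to 127 kb from the first peak, and most other points lie near or below 0.

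Bhlhe40 encodes a transcription factor that is induced in activated T cells. The ATAC peak at its CHD8 site, chr6:108636132-108636850, had 32.1 TPM in the WT mouse and 36.4 and 39.7 TPM in the Chd8-/- mice, a change of 0.18 and 0.30. Stronger gains lay on both sides of it. The adjacent peak before it, chr6:108635725-108635902, had 21.6 TPM in the WT mouse and 26.2 and 27.7 TPM, and the next one out, chr6:108635282-108635505, had 20.4 TPM in the WT mouse and 30.6 and 35.2 TPM. About 29 kb further on, chr6:108665192-108665892 had 5.2 TPM in the WT mouse and 18.9 and 16.7 TPM, and chr6:108681714-108682092 had 3.4 TPM in the WT mouse and 11.6 and 14.5 TPM. At 11 of the 12 peaks of this region both Chd8-/- mice lay above the WT mouse, and the remaining one, chr6:108607639-108608214, had 8.0, 8.3 and 7.7 TPM.

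At the CHD8 sites assigned to Hspa5, an endoplasmic reticulum chaperone, most ATAC peaks were strong and near WT. The peak chr2:34661421-34662758 had 55.6 TPM in the WT mouse and 53.6 and 52.3 TPM in the Chd8-/- mice. These sites spread over chr2:34643813-35551844. The one ATAC peak past the cutoff, chr2:35511736-35512415, lay near the other end of that span from the peak above. It had 5.6 TPM in the WT mouse and 9.9 and 8.7 TPM in the Chd8-/- mice.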

How the data were processed

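ATAC-seq libraries of sorted Tregs were processed by the authors, who per the methods trimmed reads, mapped them with HISAT2 to the build mm39 without duplicates, used MACS2 2.2.7.1 for peak calling, kept peaks with an overlap of at least 50% between duplicates (bedtools 1.16.1), counted reads under the union of peaks with featureCounts 1.5.3 and deposited TPM. Whether Tn5 cut sites were shifted is not given in the sources used here. Because the union of peaks was normalized to a fixed sum, a gain at some peaks lowers the values of others.

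Log2(TPM + 0.84) of the WT mouse was subtracted from the mean of both Chd8-/- mice. Peaks at or past 0.4 were counted, and medians and shares were taken by decile, chromosome, 1 Mb window and run. limma 3.58.1 (R 4.3.3; eBayes with trend) was fitted to all peaks after a check on simulated data. Tables and correlations were computed in Python 3.11.15 (pandas 2.3.3, numpy 2.4.6, scipy 1.17.1). Peaks were named by the largest mean change in each direction (5 each) among those with a mean TPM at or above the median peak (8.4 TPM) and past 0.4 the same way in each Chd8-/- mouse, and windows by the 3 highest and 3 lowest medians. Stretches of 10 Mb, runs, the strongest peaks and the peaks around Bhlhe40, Cdkn1a and Hspa5 were chosen after their values were seen. Genes could not be assigned to peaks beyond the listed CHD8 sites, because an annotation of mm39 was not used here, so the planned lists of genes and promoters were not analysed. Members and lists were chosen with earlier results of these data known. Alternatives were other pseudocounts (0.1 TPM and 8.4 TPM, the median of all values), quantile normalization, centring on the median, a cutoff of 1, each mouse past the cutoff, peaks at or above the median level, other measures of signal and distance, changes taken relative to the median of peaks of the same hundredth of signal or width, limma without trend or on autosomes alone, and each Chd8-/- mouse left out.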

Additional observations from a re-analysis of the deposited data

Results flagged for a closer look

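The X chromosome lay outside the autosomal comparison. Of its 1951 peaks, 377 were past the cutoff of 0.4 upward and 117 downward. The median change was 0.074 (0.051 in mouse 1 and 0.088 in mouse 2), above that of any autosome in the mean of the mice. In mouse 1 the X median lay below those of chromosomes 6 (0.057), 18 (0.055) and 16 (0.053), so its place above every autosome rests on mouse 2. The methods describe mice of both sexes, the labels tie no column to a sex, and the part of sex in the result was not tested. The 46 peaks of the Y chromosome summed to 206.6 TPM in the WT mouse, 212.1 TPM in mouse 1 and 88.2 TPM in mouse 2. The 3 mitochondrial peaks summed to 4059.9, 2383.2 and 3476.9 TPM.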

How the results depend on the processing

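The counts of 13752 higher and 7998 lower peaks stayed within 1.5 times under the pseudocount of 0.1 TPM, quantile normalization, centring and either Chd8-/- mouse alone. They went to 2622 and 1649 with a pseudocount at the median TPM, to 2001 and 833 at a cutoff of 1, and to 3754 and 2362 among peaks at or above the median level. The requirement of each mouse lowered the losses to 5134. The share of changed peaks that were higher moved to 51.6% under quantile normalization. Limma called 19 higher and 78 lower peaks with the pseudocount of 0.1 TPM, and 0 in each direction under every other alternative run.

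The median change, 0.012, turned to -0.0053 under quantile normalization and to -0.025 among peaks at or above the median level. The difference between the widest and the narrowest decile, -0.049, turned to 0.031 under quantile normalization and 0.031 relative to peaks of like signal, and was -0.032 among peaks at or above the median level. The difference between the highest and the lowest decile of signal, -0.28, was -0.38 with the pseudocount of 0.1 TPM, -0.12 at the median pseudocount, 0.0086 under quantile normalization, -0.12 among peaks at or above the median level, -0.67 with signal from WT, -0.084 and -0.087 with signal from the other mouse, and -0.19 relative to peaks of like width. The difference between the most isolated and the nearest decile, 0.12, was 0.060 at the median pseudocount and under quantile normalization, 0.0051 among peaks at or above the median level, and 0.056 relative to peaks of like signal. The range over autosomes, 0.081, was 0.045 at the median pseudocount, 0.068 under quantile normalization, 0.073 among peaks at or above the median level and 0.067 relative to peaks of like signal. The cause was not tested.

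With either Chd8-/- mouse left out, the higher peaks numbered 13936 to 15163 and the lower 7892 to 9714, the share of higher peaks was 58.9% to 65.8%, the median change 0.0055 to 0.021, and the differences -0.060 to -0.048 for width, -0.29 to -0.28 for signal, 0.10 to 0.14 for distance and 0.076 to 0.087 for chromosomes. Further alternatives left out chromosome 14 from 40 to 60 Mb, chromosome 9 from 3 to 4 Mb, or overlapping peaks, and were chosen after seeing the data. In these the median change, the differences and the range over autosomes moved by less than the spread between the mice. The higher peaks numbered 13540 to 13751 and the lower 7817 to 7968, and the share of higher peaks was 63.3% to 63.4%. Limma could not be fitted with a Chd8-/- mouse left out, since no residual degree of freedom remains. No paired analysis was possible because the ATAC columns carry no library number and only 1 WT column exists. The single WT mouse, the unknown depth and the rounding to 0.1 TPM limit all values of weak peaks.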
